A study of Rattus norvegicus with 3 samples.

Results

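The genes described here are 9 immediate early and stress-response genes: Fos, Junb, Egr1, Arc, Nr4a1, Nr4a2, Nr4a3, Per1 and Atf3. A probe set was taken as a member where the annotation of the array gave it 1 of these symbols and no other. This rule found all 9 genes, of 14218 genes in all, through 13 of the 31099 probe sets. Arc, Atf3, Egr1, Junb, Nr4a1 and Per1 had 1 probe set each, Fos and Nr4a2 had 2, and Nr4a3 had 3. Each of the 3 arrays (Affymetrix rat expression arrays) carried the amplified RNA of 1 cell body, or soma. The soma was taken by glass pipette from a hippocampal neuron, pyramidal by its label. The neurons came from Sprague-Dawley rat embryos at embryonic day 19, had grown for 14 days as dispersed primary cultures and had no treatment. There is 1 group and no second condition, and the somata are numbered 1 to 3 as the labels number the replicates.

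Immediate early genes are switched on within minutes of synaptic activity or growth factor signals, without new protein synthesis. Calcium and kinase cascades act on factors that are already bound at their promoters, chiefly CREB at cyclic AMP response elements and SRF at CArG boxes. Most of their products are transcription factors that start a later wave of genes, and their own transcripts are short-lived. Fos and Junb encode partners in the AP-1 dimer, Egr1 a zinc-finger factor, and Nr4a1, Nr4a2 and Nr4a3 orphan nuclear receptors. Arc is no transcription factor: it encodes a postsynaptic protein that acts on AMPA receptor traffic, and its messenger RNA is carried into dendrites. Per1, a repressor of the circadian clock, is also induced through CREB. Atf3 is a bZIP factor (a class that dimerises through a leucine zipper) of the stress response, and injured neurons are known to induce it.

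Values are log2 intensities as deposited, with the median of the probe sets standing for a gene. A percentile gives the position of a gene among the 14218 genes of its array. Since probes differ in affinity, this position does not rank transcripts by abundance. The median gene of the array, called the array median here, read 7.27, 7.23 and 7.19 log2 in cells 1, 2 and 3. Background was the 95th percentile of 128 genes that neurons are not known to use (odorant, vomeronasal and taste receptors and genes of other organs). It lay at 9.71, 9.94 and 9.30 log2 in cells 1, 2 and 3. Of 17 genes of neurons in general, only 3, 3 and 9 were above it in these cells. A reading below background is therefore no sign that a transcript was absent. Cells 2 and 3 were the most alike pair across all genes (Pearson's r = 0.676), against 0.474 for cells 1 and 2 and 0.439 for cells 1 and 3. With 3 arrays the precision is limited throughout, and ± gives the SD over the 3 cells. The labels name no animal or dish, so this spread may be technical.

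As a group the 9 genes, chosen with earlier results of these data known, stood in the upper part of every array. Their median percentile was 78.3 in cell 1, 80.4 in cell 2 and 82.4 in cell 3, or 80.4 ± 2.05, against the array middle of 50 for all genes and 30.2 to 40.1 for the 128 background genes. Of the 27 readings (9 genes in 3 cells), 22 lay above the array median. Egr1, Arc, Nr4a2, Nr4a3 and Per1 did so in every cell. Few passed the background, however. In cell 1, 1 of 9 genes did, against 7.15% of all genes. In cell 2 it was 1 of 9, against 6.22%, and in cell 3 it was 3 of 9, against 11.9%. The readings that passed were Nr4a3 in cells 1 and 3, Per1 in cells 2 and 3, and Egr1 in cell 3. Nr4a3 in cell 1 and Per1 in cell 2 passed by only 0.12 and 0.08 log2. None of the 9 passed in every cell, against 2.1% of all genes, whereas 3 passed in at least 1 cell, against 17.4%. A single gene is 11.1% of the 9, and no test was made of these shares. The count rested on cell 3 and on the summary: 2 of 18 readings passed without cell 3, and 9 of 27 with the brightest probe set of each gene. Over all genes 8.41% of readings passed, against 6.69% without cell 3 and 13.8% with the brightest probe sets.

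**Figure D1:**
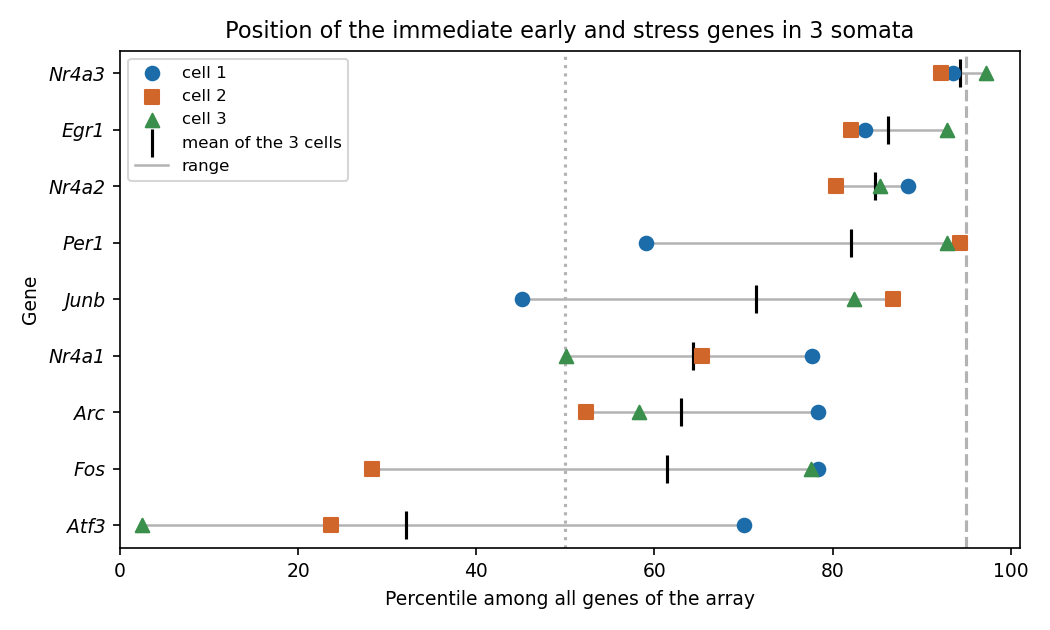
Percentile of each of the 9 genes among the 14218 genes of the array (horizontal axis) (circles, squares and triangles for cells 1, 2 and 3), where a grey line spans the range and a black bar marks the mean; the dotted line marks the 50th and the dashed line the 95th percentile. Nr4a3 stays between 92.1 and 97.2, whereas Atf3 spans 2.45 to 70.1.

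Ordered by mean percentile, Nr4a3 stood first (94.3 ± 2.63), followed by Egr1 (86.2 ± 5.86), Nr4a2 (84.7 ± 4.06) and Per1 (82.0 ± 19.9). Junb (71.4 ± 22.9), Nr4a1 (64.4 ± 13.9), Arc (63.0 ± 13.7) and Fos (61.4 ± 28.7) came next, and Atf3 was last (32.1 ± 34.6). The ranges of all 8 pairs of neighbours in this order overlapped, so no gene was set apart from the next beyond the spread between cells. The first place and small SD of Nr4a3 come from a median over 3 probe sets that did not move alike: it is the reading of 1369217_at in cells 1 and 3 and of 1393389_at in cell 2. Among all probe sets, 1369067_at of the same gene stood at percentiles of 74.1, 57.4 and 86.0. Nr4a3 was the only one of the 9 in the top 5% of an array, in cell 3.

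Of the factors of the AP-1 dimer, Junb read low in 1 soma and high in the others. Its value was 7.11 log2 in cell 1, 9.04 in cell 2 and 8.75 in cell 3, at percentiles of 45.2, 86.7 and 82.4. Cell 1 was therefore the low one, below its array median. Fos, the usual partner of Junb, gave 8.41, 6.41 and 8.42 log2 in cells 1, 2 and 3, at percentiles of 78.3, 28.2 and 77.5. Here cell 2 was the low one. The value of Fos joins a pair of probe sets that contradicted each other, and 1 of them, 1375043_at, was lowest in cell 1 as Junb was.

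Egr1 was among the members that varied least in position. It read 8.73 log2 in cell 1, 8.67 in cell 2 and 9.99 in cell 3, at percentiles of 83.6, 82.0 and 92.9. Cell 3 was the high one, by 1.03 log2 over cell 1 and 1.15 over cell 2 after quantile normalisation, which gives every array the same distribution of values. Arc read 8.41 log2 in cell 1, 7.31 in cell 2 and 7.50 in cell 3, at percentiles of 78.3, 52.3 and 58.2. It was highest in cell 1 and lay near the array median in the others, below background in all 3 cells.

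The NR4A receptors share a DNA-binding design and bind as monomers, and Nr4a1 and Nr4a2 also pair with retinoid X receptors. Nr4a1 (Nur77) read 8.38 log2 in cell 1, 7.82 in cell 2 and 7.19 in cell 3, at percentiles of 77.7, 65.3 and 50.1. Cell 3 was thus its lowest cell, at the array median, while the same cell gave the highest Egr1 reading. Nr4a2 (Nurr1), best known as a factor of dopamine neurons, read 9.13, 8.56 and 8.98 log2 in cells 1, 2 and 3, at percentiles of 88.5, 80.4 and 85.3. Nr4a3 (NOR-1) read 9.83, 9.66 and 10.94 log2, at percentiles of 93.5, 92.1 and 97.2. Nr4a2 was the steadiest of the 9 genes in its gene value (quantile-normalised SD 0.33, with 13.2% of all genes below it). That steadiness did not hold within its probe sets.

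By the SD of quantile-normalised log2 values Atf3 and Per1 varied most, while by the SD of percentiles Fos and Junb came before Per1. Per1 read 7.58 log2 in cell 1, against 10.02 in cell 2 and 9.98 in cell 3, at percentiles of 59.1, 94.2 and 92.8. Cell 1 was the low one, as for Junb. Atf3 read 8.01 log2 in cell 1, 6.20 in cell 2 and 4.61 in cell 3, at percentiles of 70.1, 23.6 and 2.45. Every cell lay below background, at -1.70, -3.74 and -4.69 log2 from it, and in cell 3 the probe set stood near the bottom of the array. The quantile-normalised SD was 1.66 for Atf3 and 1.39 for Per1, larger than for 89.8% and 82.8% of all genes.

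To show which elements the promoters of these genes carry, the RefSeq windows of 3 members with a single probe set are printed 5′ to 3′. Egr1 and Nr4a1 are shown because they ran in opposite orders over cells 1 and 3, and Junb because it was low in cell 1. Each window holds 250 bases before and 50 after an annotated transcript start (assembly GRCr8, plus strand). Egr1 lies at chr18:26736828-26737127, Nr4a1 at chr7:134259888-134260187 and Junb at chr19:40080876-40081175. The Nr4a1 window belongs to an annotated transcript 12985 bases inside the gene. Capitals mark CArG boxes, the core TGACG of cyclic AMP response elements (CGTCA where it lies on the other strand) and the TATA box TATAAA.
Egr1: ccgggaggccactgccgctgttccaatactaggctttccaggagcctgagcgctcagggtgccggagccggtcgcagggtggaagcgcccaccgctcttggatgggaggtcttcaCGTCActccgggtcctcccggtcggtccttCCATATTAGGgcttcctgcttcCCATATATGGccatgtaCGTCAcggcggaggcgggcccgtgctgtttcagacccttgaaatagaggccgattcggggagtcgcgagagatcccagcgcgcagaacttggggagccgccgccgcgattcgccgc
Nr4a1: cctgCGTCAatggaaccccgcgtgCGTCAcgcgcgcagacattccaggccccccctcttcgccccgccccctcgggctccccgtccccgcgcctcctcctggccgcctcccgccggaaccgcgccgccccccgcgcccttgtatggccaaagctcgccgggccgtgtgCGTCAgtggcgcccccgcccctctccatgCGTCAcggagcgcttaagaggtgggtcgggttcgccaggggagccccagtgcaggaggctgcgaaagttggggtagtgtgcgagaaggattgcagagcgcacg
Junb: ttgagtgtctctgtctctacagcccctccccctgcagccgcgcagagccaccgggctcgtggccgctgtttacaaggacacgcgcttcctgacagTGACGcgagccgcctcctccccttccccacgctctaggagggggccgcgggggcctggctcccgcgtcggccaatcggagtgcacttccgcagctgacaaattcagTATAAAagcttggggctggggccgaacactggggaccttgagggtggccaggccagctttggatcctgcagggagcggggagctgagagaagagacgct

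The Egr1 window held 2 CArG boxes, at bases -105 to -96 and -83 to -74 from the start, and 2 TGACG cores. The Nr4a1 window held 4 TGACG cores and no CArG box, and the Junb window 1 core and 1 TATA box. Searched on both strands, a CArG box was found in 1.64% of the 33469 promoter windows of the table, TGACG in 21.2% and TATAAA in 14.2%. The AP-1 site (TGAGTCA or TGACTCA, in 4.63% of windows) and the E-box CACGTG (6.42%) were in none of the 3. None of the matches overlapped. Of the members, 5 were matched to a window. The other matched members were Per1, with none of the 5 motifs, and Nr4a2, with 1 TGACG core. Both windows lie at starts inside the gene. Only exact letters were matched, with a CArG box taken as CC and GG with A and T alone between. Variant forms of a site were not counted. A match describes letters and is no measurement of binding.

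Probe sets of the same gene moved in different directions between cells. For Fos, probe set 1371283_at read 9.37, 4.68 and 6.97 log2 in cells 1, 2 and 3, while 1375043_at read 7.45, 8.15 and 9.88. The 1371283_at set was highest in cell 1 and 1375043_at in cell 3. Between cells 1 and 2 they differed by -4.75 and 0.77 log2 (quantile-normalised, cell 2 minus cell 1), so the lower value of Fos in cell 2 than in cell 1 rested on 1371283_at alone. Against cell 3 both were lower in cell 2, with differences of 2.35 and 1.62 log2 (cell 3 minus cell 2).

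For Nr4a2, 1369007_at read 10.61, 7.86 and 10.50 log2, and 1387410_at read 7.64, 9.27 and 7.47. These patterns were mirror images, with cell 2 lowest in one and highest in the other. The differences between cells 2 and 1 were -2.88 and 1.68 log2, and the near-constant value of the gene was their midpoint.

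For Nr4a3, 1369067_at read 8.30, 7.45 and 9.21 log2, and 1393389_at read 10.24, 9.66 and 12.23. Both were highest in cell 3 and lowest in cell 2. The other probe set, 1369217_at, read 9.83, 13.68 and 10.94 log2 and was highest in cell 2, where it stood at percentile 99.9 among all probe sets. It is the only one of the 13 for which the annotation lists no transcript accession. Over these 3 genes, pairs of probe sets differed in the same direction in 7 of 15 comparisons between cells.

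**Figure D2:**
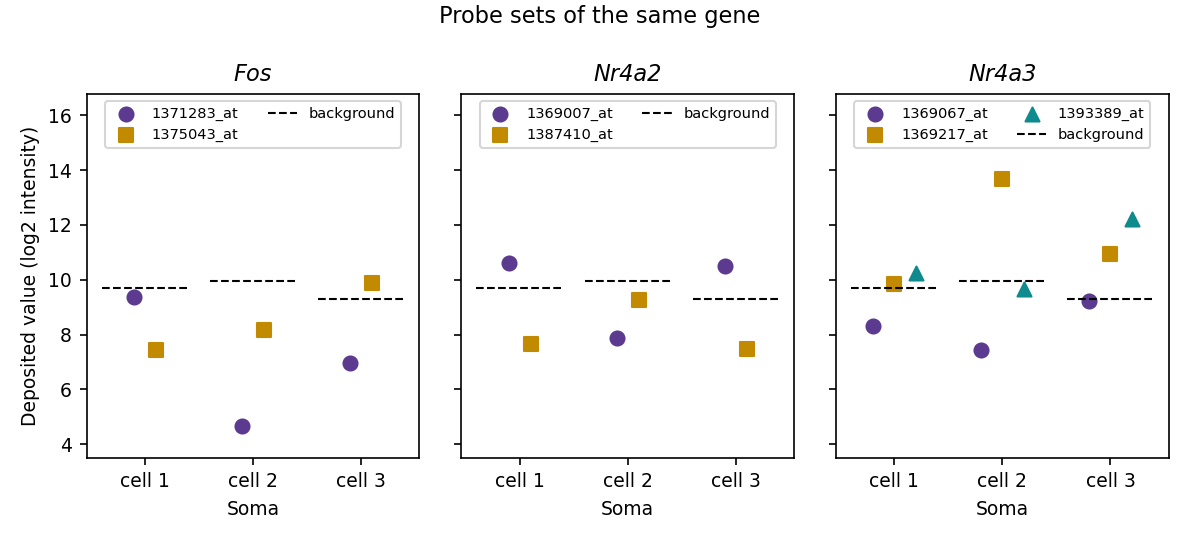
Deposited log2 intensity (vertical axis) of each probe set of Fos, Nr4a2 and Nr4a3 in cells 1, 2 and 3 (horizontal axis), with 1 symbol per probe set and a dashed line at the background of each array. The Nr4a2 probe sets mirror each other (10.61, 7.86 and 10.50 against 7.64, 9.27 and 7.47), and 1369217_at of Nr4a3 peaks in cell 2 at 13.68.

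This was not particular to the 9 genes. Over 4525 genes with 2 or more probe sets, 1 pair per gene, the difference between cells 2 and 1 had the same sign in 51.8% of pairs. It did so in 52.8% for cells 3 and 1 and in 52.4% for cells 3 and 2. Pearson's r of these differences across genes was 0.016, 0.040 and 0.049, as a description in which all pairs share the same arrays. Where both probe sets moved by over 1 log2, the signs were the same in 51.9%, 54.4% and 55.1% of pairs. A difference between cells in the 6 members with 1 probe set therefore has no check from a second probe set, and Junb, Per1 and Atf3 are among them. Whether the annotation, the summary of the probes or the amplification has a part in this was not tested.

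Differences over 1 log2 between somata ran both ways among the 9 genes. For cell 2 minus cell 1, Junb (1.99 log2) and Per1 (2.52) were over 1 log2 higher, that is 2-fold, as were 24% of all genes. Fos (-2.03), Arc (-1.13) and Atf3 (-1.80) were over 1 log2 lower, as were 22.5%. For cell 3 minus cell 1, Junb (1.64), Egr1 (1.03) and Per1 (2.26) were higher, as were 26.9% of all genes. In the same pair Nr4a1 (-1.18) and Atf3 (-3.32) were lower, as were 22.7%. For cell 3 minus cell 2, Fos (1.98), Egr1 (1.15) and Nr4a3 (1.09) were higher, against 18.8% of all genes, and Atf3 (-1.51) was lower, against 17.4%. In total 14 of 27 differences passed 1 log2, while 46.4%, 49.6% and 36.1% of all genes did so in the same pairs. Each pair sets 1 soma against another, so these differences have no replicate check. The median SD over cells was 0.63 log2 for the 9 genes and 0.77 for all genes.

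**Figure D3:**
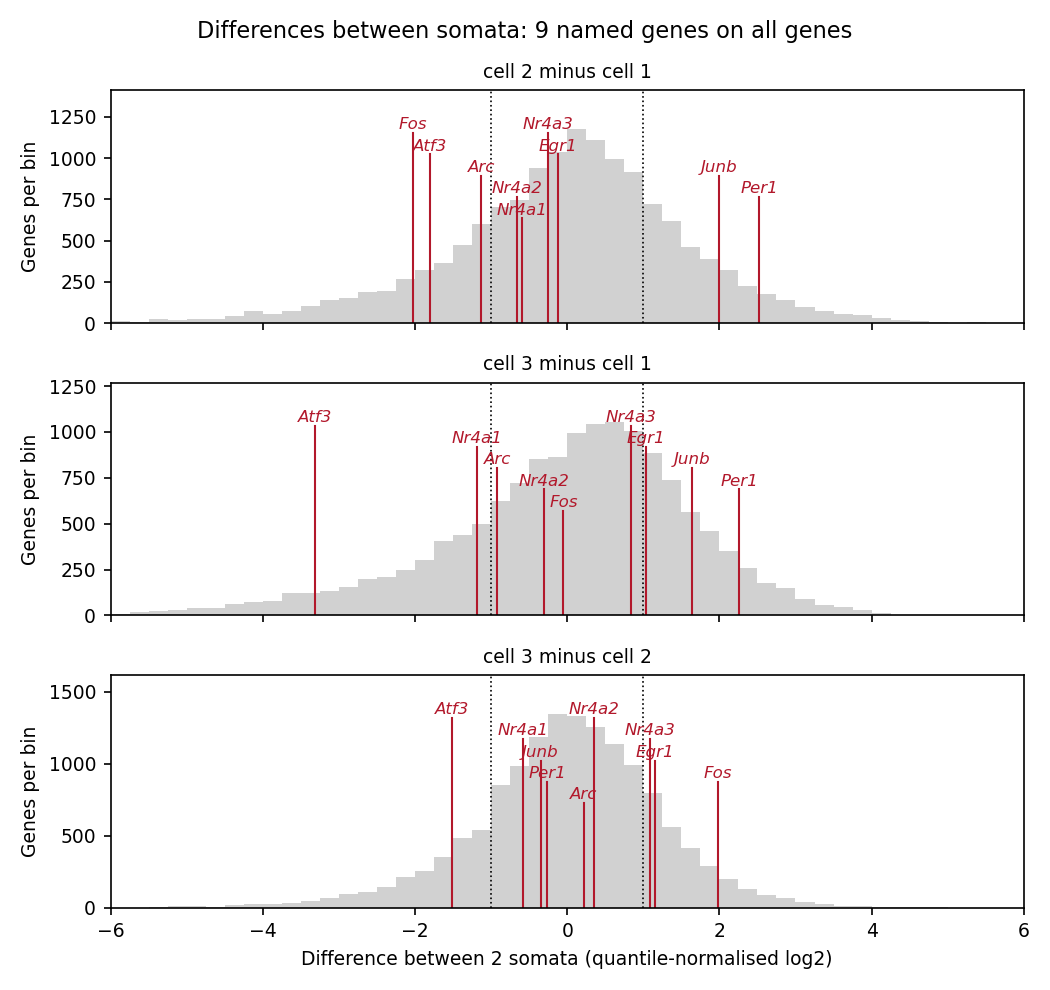
Number of genes per bin of 0.25 log2 (vertical axis, grey) by the quantile-normalised difference between somata (horizontal axis, log2), with red lines at the 9 genes and dotted lines at 1 and -1 log2. The genes lie on both sides of 0 in every panel, with Atf3 at -3.32 for cell 3 minus cell 1 and Per1 at 2.52 for cell 2 minus cell 1.

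The members did not share 1 order of the cells. By gene value, Junb and Per1 were both lowest in cell 1. Arc, Nr4a1, Nr4a2 and Atf3 were highest there, and Egr1 and Nr4a3 were highest in cell 3. For Nr4a2 and Nr4a3 this order rested on the median over probe sets: 1387410_at and 1369217_at were highest in cell 2. Cell 1 also stood apart in a control for RNA ends: the 3′ minus 5′ difference of the Gapdh probe sets was 0.20 log2 there, but 3.06 and 2.93 in cells 2 and 3. The same difference for hexokinase was -2.40, 1.79 and -0.18 log2. Some markers of other cells also read high in cell 1. Of 12 microglial genes, 4 (Csf1r, Tyrobp, C1qc and Itgam) were above background in cell 1 and none in cell 2 or cell 3, with median percentiles of 70.8, 51.6 and 31.4 over the list. The list was not uniform. By percentile 7 of the 12 were highest in cell 1, among them Tyrobp (99.3, 9.95 and 2.93), 3 in cell 2 and 2 in cell 3. Aif1 (1.65, 31.9 and 28.3), Cx3cr1 (17.2, 68.3 and 75.8) and P2ry12 (13.8, 92.5 and 34.4), all common markers of microglia, were lowest in cell 1. Of 10 astrocyte genes, 1 was above background in cell 1 and none in the others (medians 53.6, 32.0 and 42.4). By percentile 5 of the 10 were highest in cell 1, 4 in cell 2 and 1 in cell 3. Of all genes 7.15%, 6.22% and 11.9% were above background in cells 1, 2 and 3. The part of the RNA-end and marker values in the readings of Arc, Nr4a1, Nr4a2 and Atf3 in cell 1 was not tested. Nor was their part in those of Junb and Per1.

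The label of the cells was checked against markers. Genes of neurons in general had median percentiles of 80.3, 85.2 and 89.7 in cells 1, 2 and 3 (17 genes), with Mapt and Stmn4 above background in every cell. In each cell 14 of the 17 lay above the array median. Syt1 (31.9, 24.7 and 7.08) and Uchl1 (10.6, 11.7 and 23.9) lay below it in every cell. Map2 (28.7, 17.7 and 67.5) did so in cells 1 and 2, and Elavl4 (85.6, 62.8 and 26.7) in cell 3. Pyramidal markers had 54.8, 52.4 and 85.1 (10 genes), with Nrgn and Neurod2 above background in every cell. The vesicular glutamate transporter Slc17a7 (55.3, 51.2 and 51.2) and the kinase Camk2a (26.5, 19.6 and 26.2), both defining markers, did not read high. For interneurons the medians were 57.3, 70.1 and 36.7 (9 genes), for oligodendrocytes 72.0, 63.0 and 54.7 (11 genes), and for vascular cells and fibroblasts 72.8, 60.6 and 41.7 (12 genes). Above background in cells 1, 2 and 3 were 3, 3 and 9 neuron genes and 2, 2 and 4 pyramidal markers. Interneurons had 1, 1 and 1, oligodendrocytes 1, 2 and 0, and vascular cells and fibroblasts 1, 2 and 2. In cell 2 the share was 17.6% for neurons, 18.2% for oligodendrocytes and 16.7% for vascular cells and fibroblasts. Of all genes 7.15%, 6.22% and 11.9% were above background in cells 1, 2 and 3. Vwf, of endothelium, was above background in every cell. The interneuron marker Calb2, which encodes calretinin, lay at 98.3, 91.0 and 99.1, above background in cells 1 and 3.

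Some relatives of the members, singled out after their values were seen, are given as values only. In the AP-1 family, Fosb lay at percentiles of 98.6, 84.9 and 83.4 in cells 1, 2 and 3, and was above background in cell 1. Fosl1 lay at 74.9, 97.1 and 96.3 and passed background in cells 2 and 3, the somata in which Junb also read higher. Jun lay at 50.8, 56.5 and 66.0, Fosl2 at 25.7, 62.1 and 36.3, and Jund at 56.1, 11.7 and 16.4. The AP-1 subunits therefore included readings from the low end of an array to its top. The other zinc-finger factors of the Egr1 family stood below Egr1 in every cell. Egr2 lay at 33.1, 27.7 and 58.0, Egr3 at 34.8, 12.6 and 27.4, and Egr4 at 55.5, 41.8 and 80.2. Beside Per1, the clock genes Per2 (68.4, 65.4 and 49.2) and Per3 (70.6, 29.2 and 51.3) did not share its low reading in cell 1. Of other bZIP factors in the lists, some were highest in cell 1 as Atf3 was and many were not. Cebpb lay at 85.3, 7.63 and 0.039, Jdp2 at 97.9, 68.9 and 7.48, Atf2 at 99.2, 8.63 and 2.93, and Atf5 at 80.5, 23.6 and 51.5. Atf4, the stress factor upstream of Atf3, lay at 38.0, 93.6 and 91.5, and Ddit3 (CHOP) at 30.6, 17.4 and 41.4. Maff, Batf, Atf1 and Mafg were highest in cell 2, and Atf6, Batf3, Mafk, Xbp1, Nfe2l2, Crem, Tef and Dbp in cell 3. Nfil3 and Creb1 were highest in cell 1.

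Wider lists of the pathway lay nearer to the middle of the arrays than the 9 genes, by a margin that depended on the summary of probe sets. The members and lists were chosen with earlier results of these data known. What part that choice has in the contrast was not tested. Averaged over cells, the 9 genes had a median percentile of 80.4, the other immediate early transcription factors 52.6 and the activity-regulated effectors 60.5. With the brightest probe set of each gene these values were 73.8, 64.9 and 63.9. For 20 other immediate early transcription factors the median percentile was 55.8, 42.1 and 60.1 in cells 1, 2 and 3, with 1, 3 and 2 genes above background. Fosl1 was the highest of them by mean percentile (89.5 ± 12.6) and Egr3 the lowest (24.9 ± 11.3). For 18 effectors that activity induces, such as growth factors and phosphatases, it was 43.9, 73.9 and 63.7, with 1, 1 and 4 above background. Zfp36, which binds AU-rich elements and speeds the decay of short-lived transcripts, led that list at 96.3, 97.3 and 97.6 and was its only gene above background in every cell. Trib1, a pseudokinase, closed it at 33.0, 14.2 and 12.7. The shares above background in cells 1, 2 and 3 were 5%, 15% and 10% for the other immediate early transcription factors. For the effectors they were 5.56%, 5.56% and 22.2%, and for all genes 7.15%, 6.22% and 11.9%.

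Of 13 factors and kinases that act upstream, 0, 1 and 2 passed background, with medians of 43.6, 41.0 and 62.7. As shares these are 0%, 7.69% and 15.4%, against 7.15%, 6.22% and 11.9% of all genes. Elk1, the ternary complex factor that works with SRF, led at 86.4, 96.6 and 92.8, and Creb1 was last at 17.3, 10.5 and 11.4. For 22 stress-response genes the medians were 51.3, 33.3 and 57.7, with 1, 1 and 3 above background. Ddit4, an inhibitor of mTOR signalling, led (70.8, 91.0 and 92.3) and the reductase Nqo1 closed this list (16.7, 5.75 and 10.5). Stress genes as a list thus stood below the array median in cell 2 and a little above it in cells 1 and 3. For 16 clock genes the medians were 49.9, 39.2 and 46.3, with 0, 0 and 1 above background, from Csnk1d, a kinase that phosphorylates PER proteins (84.7, 92.0 and 93.7), down to Timeless (5.27, 5.75 and 4.10). For 13 partners, relatives and repressors they were 64.5, 66.8 and 35.1, with 2, 0 and 2 above background. Nab2, which represses Egr1 activity, led these (70.4, 85.9 and 91.1), and the AP-1 relative Batf was last (1.15, 68.9 and 16.4). The shares above background were 4.55%, 4.55% and 13.6% for the stress genes and 0%, 0% and 6.25% for the clock genes. For the partners, relatives and repressors they were 15.4%, 0% and 15.4%. No list was tested against others.

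**Figure D4:**
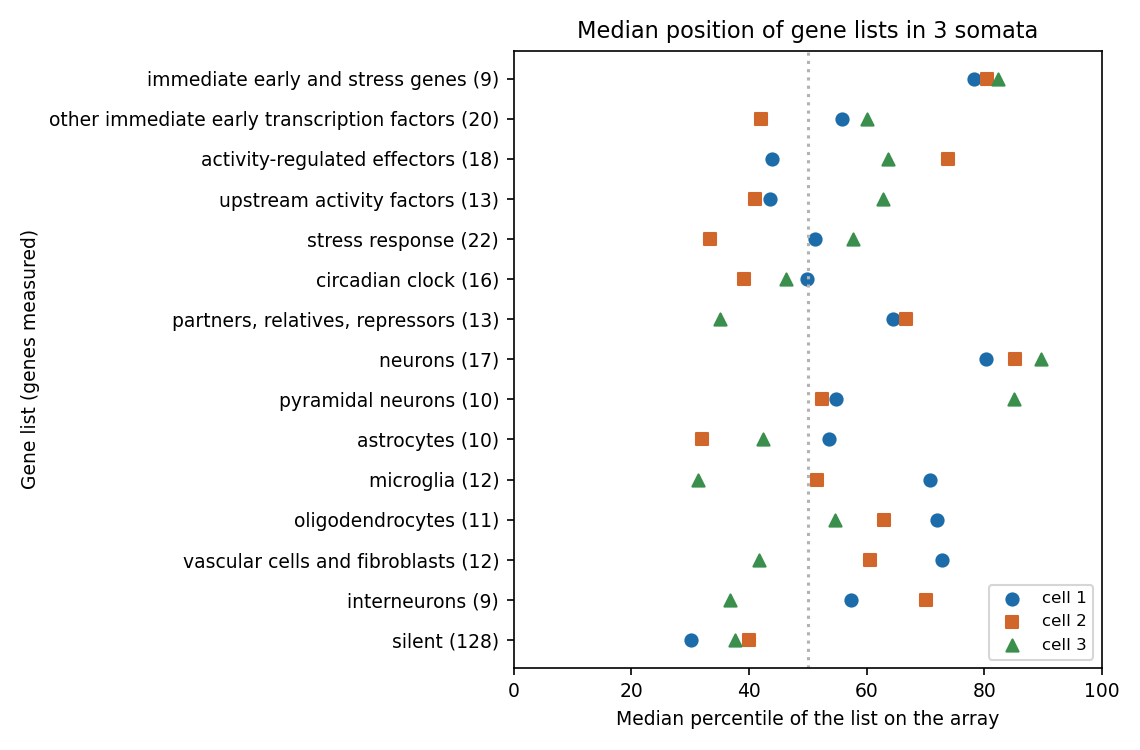
Median percentile (horizontal axis) of each gene list (vertical axis, number of genes measured in brackets) (circles, squares and triangles for cells 1, 2 and 3); the dotted line marks the 50th percentile. The 9 immediate early and stress genes lie between 78.3 and 82.4, and the 128 background genes, named silent, between 30.2 and 40.1.

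The genes most like Nr4a3 and Atf3 were found by the root mean square difference of quantile-normalised log2 values over the 3 cells. Nearest to Nr4a3 (9.94, 9.70 and 10.78 log2) were Atp6v0c (0.11 log2 apart), a subunit of the vacuolar proton pump, Prkar1b (0.13), a regulatory subunit of protein kinase A, and Mrfap1 (0.15). Nearest to Atf3 (8.02, 6.22 and 4.70 log2) were the aldehyde dehydrogenase Aldh3a2 (0.05 apart), Rbak (0.12) and the sterol acyltransferase Soat1 (0.13). Within 0.5 log2 lay 87 genes for each of them, so a match over 3 cells is a weak mark of likeness.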

How the data were processed

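RNA of single somata had passed through 2 rounds of antisense RNA amplification and a final round of 14 h with the Ambion Illumina TotalPrep kit, and 5 µg per array were labelled with biotin, per the labels. The authors deposited log2 intensities, 1 per probe set, and the labels name RMA 2.0. The methods of the study describe an upper-decile summary, centring on the median and scaling by the range between the 10th and 90th percentiles in each array. The deposited values were not centred or scaled so. The genome build, and how many arrays were processed together, are not given in the sources used here.

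Of 31099 probe sets, 20832 carried 1 symbol, 436 several and 9831 none. Symbols came from the platform annotation, and gene numbers of all 9 members had the same symbol in RefSeq (GRCr8). Levels, percentiles and background calls used deposited values, and differences between cells used quantile-normalised gene values (pandas 2.3.3, numpy 2.4.6). Tied values shared a mean rank. The 128 background genes were 29 receptor genes and 99 genes of other organs, so about 5% of them pass by construction. No detection calls were used.

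The labels name no animal or dish, so cells gave a spread and no p-value, and no group test exists. Alternatives changed the probe set summary, ambiguous probe sets, normalisation, dim genes, feature ranked, background and cells. The members and lists were chosen with earlier results of these data known. Tef was moved to the clock list and Fam107a dropped after values were seen, because of their roles. Named genes were all members, the highest and lowest gene of each list and any above background in every cell, and the 3 genes nearest to the highest and the most variable member. Relatives of the members, other bZIP factors and the cell type markers named beyond this rule were chosen after their values were seen. The measures were tested on simulated data.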

Additional observations from a re-analysis of the deposited data

How the results depend on the processing

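The median percentile of the 9 genes was 80.4 and moved to 73.8 with the brightest probe set per gene, to 71.6 without dim genes (8 genes left) and to 76.1 over all probe sets. It ranged from 79.4 to 81.4 with a cell left out, and stayed within the spread between cells with means of probe sets or without ambiguous ones. Readings above background numbered 5 of 27, and 9 with the brightest probe set, 9 with background at the 90th percentile and 8 with background from receptor genes alone. The share of all genes' readings moved with them, at 13.8%, 14.3% and 13.6% under these settings and 8.41% otherwise. With a cell left out they numbered 2 to 4 of 18, and 2 without cell 3. Other normalisations left 5. Differences over 1 log2 numbered 14 of 27, between 14 and 16 under the other settings and 4 to 5 of 9 for single pairs of cells. Of 71 values of single members under alternatives 7 moved beyond the spread between cells, and of 42 of wider lists 3 did. The 3 were the other immediate early transcription factors with the brightest probe set, and upstream factors and clock genes without dim genes. For Per1, Junb, Fos and Atf3 the spread was 19.9 to 34.6 percentile points, so large shifts of these were not counted. Fos went from 61.4 to 47.1 and Junb from 71.4 to 59.1 without dim genes, and neither counted as moved. Without dim genes the effectors stood at 65.1, against 71.6 for the members. Values with a cell left out are among the 71 and 42 but could not move so far. Leaving out 1 of 3 cells always shifts the mean by less than the SD over the cells. No paired analysis was possible because there is 1 group. Array number and background limit what can be said: most readings lay below background, and probe sets of the same gene did not move alike.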
